A study of Homo sapiens with 40 samples.

Results

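The comparison described here asked what the TDP1 inhibitor OL9-119 changed in the transcriptome of PARP1-knockout cells that were already under topotecan (Tpc). HEK293A is an adherent line of human embryonic kidney origin, and PARP1-KO is a single clone of it in which a CRISPR/Cas9 deletion was made in PARP1, so that all 8 libraries compared carry the same deletion. The Tpc group held the 4 libraries of PARP1-KO cells given 50 nM Tpc with 0.1% DMSO. The Tpc + OL9-119 group held the 4 libraries of PARP1-KO cells given 50 nM Tpc with 5 µM OL9-119, also in 0.1% DMSO. Both treatments lasted several hours. Titles call the clone a knockout, another label field a knockdown. These 8 libraries were chosen by their labels from the 40 of the series, which has 4 libraries in each of 10 conditions, and 28922 of 58395 genes with at least 10 summed counts were tested. Beside them stand 8 libraries of PARP1-KO cells with DMSO or OL9-119 alone, and 8 WT libraries with the same pair of treatments but 100 nM Tpc.

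Tpc traps topoisomerase 1 (TOP1) on DNA as a cleavage complex, in which the enzyme stays joined to the end of the strand it has cut. TDP1 cuts that bond during repair, and PARP1 senses the broken strand and recruits TDP1 and other repair factors. TDP1 also has a role in mitochondria, whose circular genome is read from both strands into long RNAs. These are cut into rRNAs, tRNAs and mRNAs.

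Total counts ranged from 9874242 to 13760109 in the 8 libraries, and mitochondrial genes held 3.98% to 4.97% of them. PARP1 was at 33.8 to 45.4 CPM (TMM-scaled read counts, made comparable between libraries) in the PARP1-KO Tpc libraries and at 762 to 805 CPM in the WT Tpc libraries, that is at 5.24% of the WT mean (exact two-sided permutation test over 70 divisions, p = 0.0286, the smallest this design allows). In the Tpc + OL9-119 libraries it was at 4.94% of the WT mean, by the same test with the same p. The epithelial keratin gene KRT8 (565 to 751 CPM) and VIM, which encodes vimentin (789 to 970 CPM), were high in the 8 libraries while EPCAM, an epithelial surface marker, was at no more than 1.76 CPM, and of 10 neuronal markers NEFL, a neurofilament gene, was at 270 to 289 CPM and NES at 60.1 to 97.2 CPM while the other 8 were at no more than 14.4 CPM, with STMN2 at 0. The summed level of 6 fibroblast markers was 30.7 to 36.0 CPM in the Tpc and 30.8 to 35.5 CPM in the Tpc + OL9-119 libraries. The 6 blood markers tested summed to at most 8.17 CPM in any of them, and the 5 endothelial ones to at most 9.56 CPM.

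One of the 8 libraries went against its label. The library labelled Tpc + OL9-119 replicate 3 had 66.3 CPM of ARID1B, a chromatin remodelling subunit, and 158 CPM of PTK2, the focal adhesion kinase. Its 3 fellow libraries had 32.4 to 37.8 CPM of ARID1B and 95.8 to 99.3 CPM of PTK2. In the 4 Tpc libraries ARID1B was at 27.2 to 38.5 CPM and PTK2 at 90.2 to 97.6 CPM, and in the 4 untreated PARP1-KO libraries they were at 54.7 to 68.6 CPM and at 154 to 187 CPM, so that replicate 3 lay within the untreated range for both genes. Conversely, the library labelled DMSO replicate 3 had 42.4 CPM of ARID1B and 101.7 CPM of PTK2, below the other 3 DMSO libraries (58.0 to 65.0 CPM and 145 to 154 CPM). Distances over 12318 genes did not settle where a library belonged, since among the other 18 PARP1-KO libraries only 10 were nearest to their own condition. Neither library was moved to another group. The main results are given with all 4 Tpc + OL9-119 libraries and with replicate 3 left out, a few values in one setting only, which is named, and some also from a fit of the 18 PARP1-KO libraries without either replicate 3, which was added after the data were seen.

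**Figure D1:**
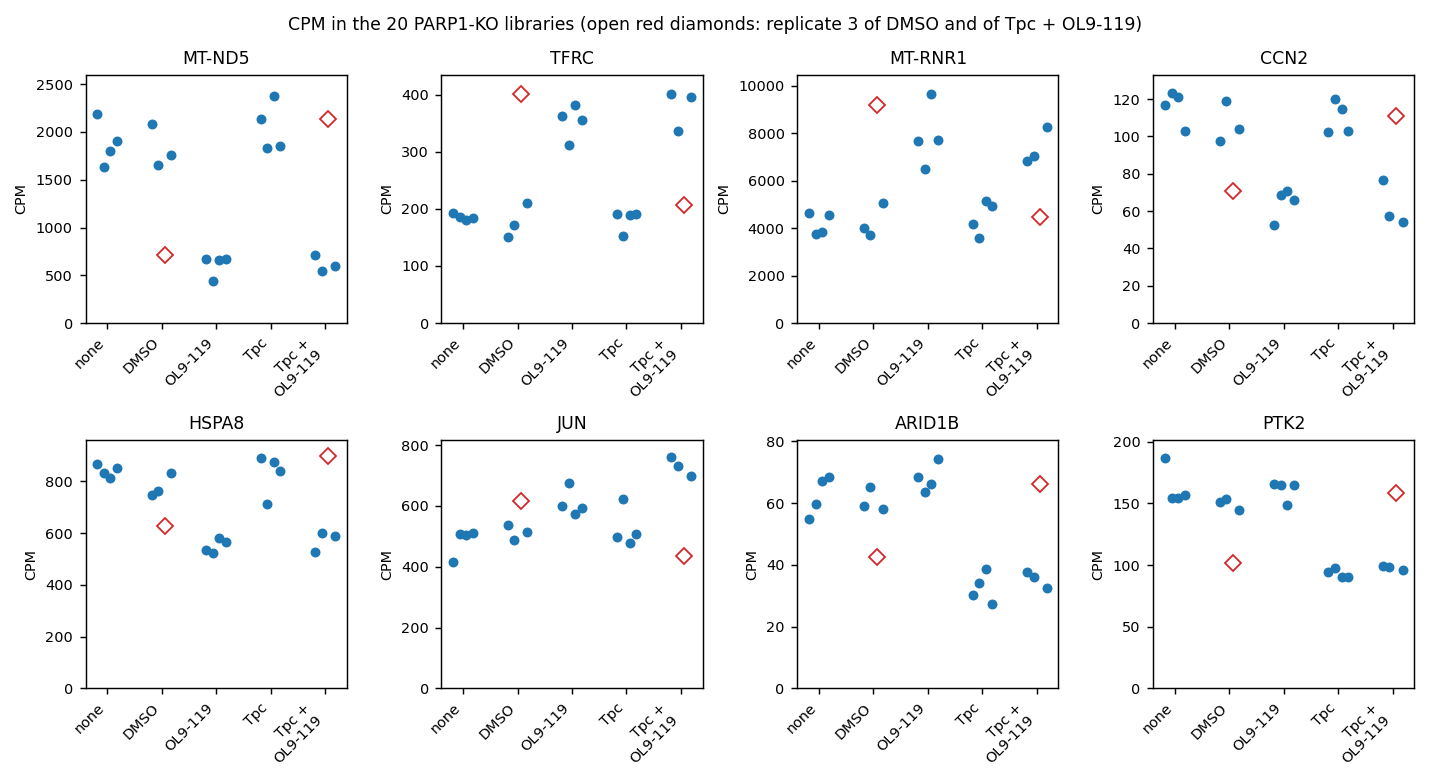
CPM of 8 genes (vertical axes, from 0) in the 20 PARP1-KO libraries by treatment (horizontal axes); each point is 1 library. The open red diamonds are the libraries labelled replicate 3 of DMSO and of Tpc + OL9-119, which lie apart from the other 3 of their groups, for MT-ND5 at 712 and 2139 CPM.

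With all 4 libraries in each group no gene passed the threshold of adjusted p below 0.01 (0% of the genes tested, edgeR's quasi-likelihood test with Benjamini-Hochberg adjustment), while 1186 genes (4.1%, with 2.07% higher and 2.03% lower) had an unadjusted p below 0.05 and DESeq2 called 1 gene (0.00346%) and had 482 (1.67%) with an unadjusted p below 0.05. With replicate 3 left out, 1 gene passed (0.00346%), MT-ND5, which fell, and 1111 genes (3.84%) had an unadjusted p below 0.05. TFRC followed at an adjusted p of 0.0319. In the fit of 18 PARP1-KO libraries 19 genes passed (0.0657%), of which 7 rose (0.0242%) and 12 fell (0.0415%). Of these 19 genes 6 were encoded in mitochondria. All 19 had the same direction in the fit with all 4 libraries, and in 17 of them replicate 3 was closer to the mean of the Tpc libraries than to that of the other 3 Tpc + OL9-119 libraries. For 18 of the 19, the 3 remaining Tpc + OL9-119 libraries lay wholly outside the range of the Tpc libraries. The 19 genes were selected on these same libraries apart from replicate 3, so that the counts of 19, 17 and 18 are not independent of the selection. Over all genes 3.4% lay wholly above and 2.3% wholly below. For MT-RNR1 the log2 fold change was 0.74 in the fit of 18 PARP1-KO libraries and 0.73 without replicate 3. For HSPA8 it was -0.53 and -0.54, so that the smaller p-values of that fit came with nearly the same changes in these genes.

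**Figure D2:**
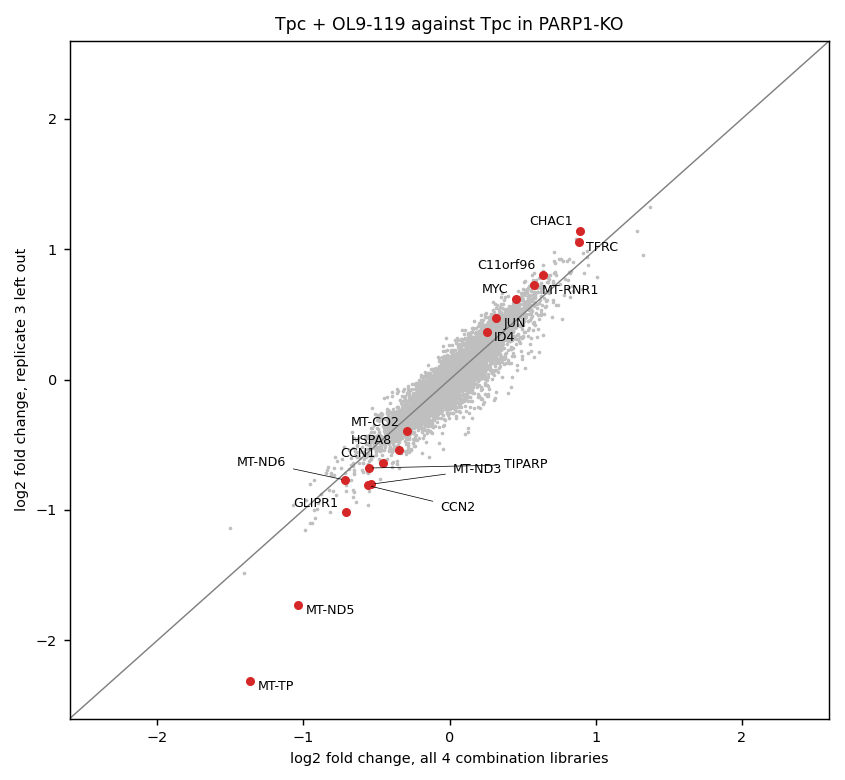
Log2 fold change of Tpc + OL9-119 against Tpc in PARP1-KO cells with all 4 Tpc + OL9-119 libraries (horizontal axis) and with replicate 3 left out (vertical axis), for genes with a mean of 4 CPM or more in either group; each point is 1 gene, red points are DEGs of the fit of 18 PARP1-KO libraries that the text names, and the line marks equal values. MT-ND5 moved from -1.04 to -1.73 and TFRC from 0.88 to 1.06.

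The libraries also differed in base composition. Over 12205 genes with a mean of at least 50 counts, the log2 fold change ran with the GC content of the gene's longest transcript (Spearman's rho 0.505 with all 4 libraries and 0.594 without replicate 3, across genes of the same libraries). Without replicate 3, the median log2 fold change was -0.152 in the tenth of genes lowest in GC (up to 38% GC) and 0.234 in the tenth highest in GC (from 61.1%). With Tpc replicate 3 left out instead the rho was 0.309. A further fit, added after the data were seen, took the trend on GC out of each library as an offset, which left a rho of 0.022 without replicate 3. With this offset 2 genes passed without replicate 3 (0.00692%), MT-ND5 and TFRC, and 28 passed (0.0968%) in the fit of 18 PARP1-KO libraries, 16 of them among the 19. C11orf96 and GLIPR1 were among those that no longer passed. Values with the offset are given below for several of the genes and lists.

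The mitochondrial RNAs held the gene with the smallest p. MT-ND5 (ENSG00000198786, hg38 chrM:12337-14148, plus strand) encodes a core subunit of respiratory complex I. It was at 2138, 1827, 2380 and 1854 CPM in the Tpc libraries and at 711, 548, 2139 and 598 CPM in Tpc + OL9-119 replicates 1 to 4. Replicate 3 lay within the range of the Tpc libraries and the other 3 lay far below it, so that the groups overlapped only through that library. The log2 fold change was -1.04 ± 0.22 (SE) with all 4 libraries (adjusted p = 0.558) and -1.73 ± 0.18 without replicate 3 (adjusted p = 6.18e-09), where the mean fell from 2050 ± 261 (SD, n = 4) to 619 ± 83.6 CPM (n = 3), 30.2% of the Tpc level. In bulk RNA a change in fewer or more cells and a change in RNA per cell cannot be told apart. The unsettled strand setting of the counts means that reads of the opposite mitochondrial strand cannot be told apart from those of MT-ND5.

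The other mitochondrial genes did not move as one. Of the 15 mitochondrially encoded mRNAs and rRNAs, 2 were higher and 8 lower at an unadjusted p below 0.05 without replicate 3, against 2.23% higher and 1.61% lower of all genes, and their median log2 fold change was -0.33 against 0 for all genes. With all 4 libraries 1 was higher and 6 were lower, against 2.07% and 2.03% of all genes, with a median of -0.25. MT-RNR1, the 12S rRNA of the small mitochondrial ribosomal subunit, went the other way from MT-ND5: it was at 4190, 3585, 5128 and 4950 CPM in the Tpc libraries and at 6844, 7056, 4484 and 8274 CPM with OL9-119. Its log2 fold change was 0.58 ± 0.19 with all 4 libraries and 0.73 ± 0.19 without replicate 3 (adjusted p = 1 in both, and 6.4e-11 in the fit of 18 PARP1-KO libraries, in which it rose). The library preparation selected poly(A) RNA, which bears on how rRNA is captured.

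Along the heavy-strand transcript, which starts just ahead of MT-RNR1, values ran from higher near the start to lower farther on. Without replicate 3 the log2 fold change was 0.73 for MT-RNR1, 0.22 for MT-RNR2 at 1.02 kb and 0.32 for MT-ND1 at 2.66 kb from the start of MT-RNR1. It was -0.40 for MT-CO2 at 6.94 kb, -0.80 for MT-ND3 at 9.41 kb and -1.73 for MT-ND5 at 11.7 kb. MT-CYB, the last mRNA at 14.1 kb, was at only -0.33, so that distance alone did not order the genes. Over the 14 rRNAs and mRNAs of this strand Spearman's rho between log2 fold change and distance was -0.793 without replicate 3 and -0.736 with it, a description of genes measured in the same libraries.

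Genes read from the light strand were few and lower. MT-ND6, another complex I subunit and the one mRNA of that strand, was at 148, 217, 203 and 136 CPM in the Tpc libraries and at 139, 87.2, 119 and 83.5 CPM with OL9-119. Its groups overlapped through replicate 1, and here replicate 3 did not stand apart; the log2 fold change was -0.71 ± 0.23 with all 4 libraries and -0.77 ± 0.25 without replicate 3 (adjusted p = 1 in both, 0.00536 in the fit of 18 PARP1-KO libraries). MT-TP, the proline tRNA gene of the same strand, was at 9.35, 14.04, 10.7 and 8.91 CPM under Tpc and at 2.64, 1.34, 10.5 and 2.52 CPM with OL9-119. Without replicate 3 its log2 fold change was -2.31 ± 0.55 (adjusted p = 0.521), and it fell in the fit of 18 PARP1-KO libraries (adjusted p = 2.08e-07).

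**Figure D3:**
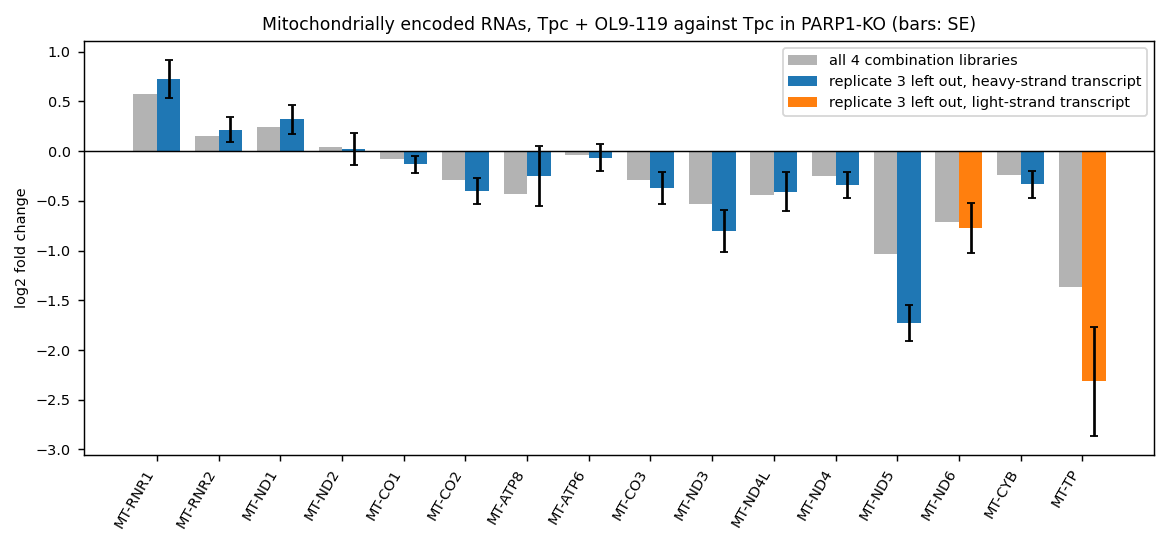
Log2 fold change of Tpc + OL9-119 against Tpc in PARP1-KO cells (vertical axis) for the mitochondrial genes with a mean of at least 50 counts, in order of position (horizontal axis). Grey bars use all 4 Tpc + OL9-119 libraries and coloured bars leave out replicate 3, with SE; MT-RNR1 stands at 0.73 and MT-ND5 at -1.73.

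Lists of nuclear genes for the same organelle showed little. None of the 76 nuclear oxidative phosphorylation genes had an unadjusted p below 0.05 without replicate 3, and with all 4 libraries 2 were lower; the medians were -0.05 and -0.02. Without replicate 3, of 77 mitochondrial ribosomal protein genes 1 was higher (MRPL10) and none lower, and of 24 genes for mitochondrial transcription and RNA processing 1 was higher, POLRMT, the mitochondrial RNA polymerase (log2 fold change 0.50 ± 0.19, unadjusted p = 0.0118, and 0.38 ± 0.18 with all 4 libraries), and 1 lower, TFAM, which packages and activates mitochondrial DNA (-0.29 ± 0.13, unadjusted p = 0.0322, and -0.30 ± 0.12 with all 4 libraries). With the GC offset both values shrank, to 0.25 and -0.14, with unadjusted p of 0.0815 and 0.137. Over all genes 2.23% were higher and 1.61% lower without replicate 3, and 2.07% and 2.03% with all 4 libraries. Counts of 1 or 2 are near those shares and say nothing about the lists.

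TFRC (ENSG00000072274, hg38 chr3:196012511-196082153, minus strand) encodes the transferrin receptor, which brings iron into cells. It was at 192, 153, 190 and 191 CPM in the Tpc libraries and at 401, 336, 206 and 395 CPM with OL9-119. All 4 Tpc + OL9-119 libraries lay above the Tpc range, replicate 3 only just. The log2 fold change was 0.88 ± 0.20 with all 4 libraries (adjusted p = 0.558) and 1.06 ± 0.20 without replicate 3 (adjusted p = 0.0319), a mean of 377 ± 36.0 CPM (SD, n = 3) against 181 ± 19.2 CPM (n = 4), or 2.08-fold. The names of the libraries carry 3 prefixes, whose meaning the labels do not give. Within them the log2 difference was 0.934, 0.278 and 1.045 for TFRC and -1.78, 0.036 and -1.63 for MT-ND5, and the middle value of each rests on replicate 3 as the sole Tpc + OL9-119 library. With the GC offset and without replicate 3 it rose by 1.15 on the log2 scale, with an adjusted p of 0.000164.

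CCN2 and CCN1, secreted matricellular proteins that respond to growth factors and to the YAP and TEAD regulators, were both lower. CCN2 (ENSG00000118523) was at 102.2 to 120.1 CPM in the 4 libraries under Tpc and at 76.7, 57.5, 111 and 53.9 CPM with OL9-119. Its log2 fold change was -0.56 ± 0.18 with all 4 libraries and -0.81 ± 0.18 without replicate 3 (adjusted p = 0.305). CCN1 was at 133, 152, 163 and 148 CPM under Tpc and at 105, 91.4, 146 and 91.0 CPM with OL9-119, with log2 fold changes of -0.46 ± 0.15 and -0.64 ± 0.16. In both, replicate 3 lay within the Tpc range and the other 3 below it, and both fell in the fit of 18 PARP1-KO libraries (adjusted p = 1.7e-07 and 9.55e-06).

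The promoter window of CCN2 from RefSeq (250 bases before to 50 after the start, GRCh38.p14, minus strand, chr6:131951323-131951622) is shown because CCN2 is among the genes that fell and its regulators have a known core motif. Capitals mark GGAATG, the TEAD core, searched on both strands; it occurred 3 times here and at least once in 14% of 35116 promoter windows.
CCN2: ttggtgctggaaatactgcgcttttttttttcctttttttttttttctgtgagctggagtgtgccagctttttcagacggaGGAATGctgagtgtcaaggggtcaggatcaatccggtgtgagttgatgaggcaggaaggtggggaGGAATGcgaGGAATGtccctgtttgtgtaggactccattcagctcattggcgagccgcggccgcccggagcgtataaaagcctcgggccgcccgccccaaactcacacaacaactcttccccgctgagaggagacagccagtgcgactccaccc

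The wider list of AP-1 and immediate early genes, fast transcriptional responders to growth factors and stress, was split. Of its 26 genes 5 were higher and 2 lower (CCN1 and CCN2) at an unadjusted p below 0.05 without replicate 3, against 2.23% and 1.61% of all genes. With all 4 libraries 3 were higher and 2 lower, against 2.07% and 2.03%. With the GC offset and without replicate 3 there were 3 of each, against 487 higher and 394 lower of all 28922 genes tested. JUN, a subunit of the AP-1 factor, was at 497, 624, 477 and 507 CPM under Tpc and at 761, 730, 436 and 699 CPM with OL9-119, replicate 3 lying below every Tpc library and the other 3 above every one. Its log2 fold change was 0.32 ± 0.12 with all 4 libraries and 0.47 ± 0.12 without replicate 3 (adjusted p = 0.771), and it rose in the fit of 18 PARP1-KO libraries (adjusted p = 5.29e-05). The transcription factor gene MYC, at 35.4, 48.7, 42.9 and 45.9 CPM under Tpc and at 71.3, 68.0, 36.7 and 60.3 CPM with OL9-119, had replicate 3 within the Tpc range and the other 3 above it, with log2 fold changes of 0.45 ± 0.20 and 0.62 ± 0.20. DUSP1, a phosphatase that switches off MAP kinases, was at 0.25 ± 0.10 with all 4 libraries and 0.32 ± 0.11 without replicate 3. With the GC offset the list's median moved from 0.14 to 0.03, while JUN (adjusted p = 3.93e-05) and MYC (adjusted p = 6.35e-05) still rose in the fit of 18 PARP1-KO libraries.

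TIPARP and CYP1B1, an ADP-ribosyltransferase and a cytochrome P450 that are both induced by the aryl hydrocarbon receptor (AHR), were the 2 genes of 15 in the AHR list that were lower at an unadjusted p below 0.05, with replicate 3 (2.03% of all genes lower) and without it (1.61%). TIPARP was at 213, 149, 201 and 154 CPM under Tpc and at 105, 110, 153 and 120.8 CPM with OL9-119. Its log2 fold change was -0.55 ± 0.18 with all 4 libraries and -0.68 ± 0.20 without replicate 3, and it fell in the fit of 18 PARP1-KO libraries (adjusted p = 1.57e-06). CYP1B1 was at 22.3, 13.5, 13.2 and 9.47 CPM under Tpc and at 8.28, 9.96, 11.6 and 5.98 CPM with OL9-119. Its groups overlapped, its log2 fold changes were -0.71 ± 0.25 and -0.86 ± 0.27, and it did not pass in the fit of 18 PARP1-KO libraries (adjusted p = 0.118). With Tpc replicate 1 left out and all 4 Tpc + OL9-119 libraries kept it was at -0.42 (unadjusted p = 0.113), so that its place in the count of 2 rests on that library. Overlapping genes on both strands share the region of CYP1B1, so that its counts are less certain.

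The first of 3 promoter windows of TIPARP (GRCh38.p14, plus strand, chr3:156674340-156674639) is shown because it holds the AHR core motif GCGTG, in capitals where it or its reverse complement occurs. It occurred 2 times, the other 2 windows held none, and 36.5% of all windows held at least 1.
TIPARP: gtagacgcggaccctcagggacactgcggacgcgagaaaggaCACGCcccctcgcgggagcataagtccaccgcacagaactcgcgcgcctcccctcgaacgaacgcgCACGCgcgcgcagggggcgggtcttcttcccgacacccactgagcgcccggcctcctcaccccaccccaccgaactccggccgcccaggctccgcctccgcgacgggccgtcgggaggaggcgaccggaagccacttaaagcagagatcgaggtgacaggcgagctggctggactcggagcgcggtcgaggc

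Heat shock genes, chaperones and co-chaperones that fold client proteins, were on the lower side. The list is mostly of the cytosol, but its members HSPD1 and HSPE1 encode chaperonins of mitochondria. Of 18 genes 5 were lower and none higher at an unadjusted p below 0.05 without replicate 3, against 1.61% of all genes lower. With all 4 libraries 4 were lower and none higher, against 2.03% lower. With the GC offset and without replicate 3 there were 3 and none, against 394 lower of all 28922 genes tested. HSPA8, the constitutive HSP70 chaperone, was at 892, 711, 875 and 841 CPM under Tpc and at 526, 600, 896 and 590 CPM with OL9-119. Replicate 3 had the highest value of all 8 libraries while the other 3 lay below every Tpc library; the log2 fold change was -0.35 ± 0.12 with all 4 libraries and -0.54 ± 0.12 without replicate 3 (adjusted p = 0.305), and HSPA8 fell in the fit of 18 PARP1-KO libraries (adjusted p = 8e-07). With all 4 libraries and without replicate 3 in turn, the other 4 were at -0.23 ± 0.10 and -0.32 ± 0.11 (DNAJA1), -0.55 ± 0.21 and -0.62 ± 0.23 (HSPE1), -0.31 ± 0.13 and -0.34 ± 0.15 (CHORDC1) and -0.33 ± 0.19 and -0.44 ± 0.20 (DNAJB4, unadjusted p = 0.0828 with all 4), none of which passed in the fits without the GC offset. The list's median without replicate 3 moved from -0.19 to -0.14 with the GC offset.

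Genes of the ATF4 pathway, which supply amino acids and curb protein synthesis under stress, were on the higher side. Without replicate 3, 34 of the 38 genes tested had a positive log2 fold change, with a median of 0.21, and 9 were higher and none lower at an unadjusted p below 0.05, against 2.23% and 1.61% of all genes. With all 4 libraries 32 were positive, with a median of 0.11, and 6 were higher, against 2.07% of all genes. With the GC offset and without replicate 3, 7 were higher, against 487 of all 28922 genes tested. Of the 9, only CHAC1, which breaks down glutathione, rose in the fit of 18 PARP1-KO libraries. It was at 12, 11.3, 9.17 and 6.78 CPM under Tpc and at 20.3, 23.6, 7.71 and 21.1 CPM with OL9-119. Replicate 3 lay inside the Tpc range and the other 3 above it, and the log2 fold change was 0.89 ± 0.36 with all 4 libraries and 1.14 ± 0.36 without replicate 3 (adjusted p = 1 in both, 0.000131 in the fit of 18 PARP1-KO libraries).

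The other 8 genes did not pass in the fits without the GC offset. The first value of each pair that follows is with all 4 libraries and the second without replicate 3. SESN2, a stress-induced brake on mTORC1, was at 0.28 ± 0.13 and 0.39 ± 0.13, the pseudokinase gene TRIB3 at 0.30 ± 0.13 and 0.36 ± 0.14, and the mTORC1 inhibitor DDIT4 at 0.34 ± 0.14 and 0.37 ± 0.15. The transcription factor gene CEBPB was at 0.41 ± 0.21 and 0.56 ± 0.22, and JDP2, another, at 0.94 ± 0.29 and 0.99 ± 0.31. GPT2, an alanine transaminase of mitochondria, was at 0.40 ± 0.16 and 0.49 ± 0.17, the stress cytokine GDF15 at 0.34 ± 0.19 and 0.44 ± 0.20, and the amino acid transporter subunit SLC3A2 at 0.16 ± 0.12 and 0.25 ± 0.12. CEBPB, GDF15 and SLC3A2 were not among the 6 with all 4 libraries, having unadjusted p of 0.0603, 0.0815 and 0.166. Under the GC offset the list's median without replicate 3 was 0.15.

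The promoter window of CHAC1 (GRCh38.p14, plus strand, chr15:40953221-40953520) is shown because CHAC1 is a known target of ATF4. Capitals mark TGATGNAA, a core of the composite element bound by ATF4 and C/EBP factors, found once, on the reverse strand; 3.62% of all windows held it.
CHAC1: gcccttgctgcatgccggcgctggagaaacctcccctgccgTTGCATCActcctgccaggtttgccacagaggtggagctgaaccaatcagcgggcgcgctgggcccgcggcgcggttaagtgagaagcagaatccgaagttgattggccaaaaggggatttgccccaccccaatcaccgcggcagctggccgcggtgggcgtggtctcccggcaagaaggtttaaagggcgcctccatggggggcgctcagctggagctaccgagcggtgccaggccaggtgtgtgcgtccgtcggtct

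Of the remaining genes that passed in the fit of 18 PARP1-KO libraries, ID4, an inhibitor of helix-loop-helix factors, was at 317, 286, 318 and 296 CPM under Tpc and at 421, 366, 273 and 391 CPM with OL9-119. It rose in that fit (log2 fold change 0.38, adjusted p = 0.00765) and also with the GC offset (0.46, adjusted p = 1.45e-07). C11orf96 rose by 0.81 on the log2 scale and GLIPR1 fell by 1.00, and neither passed with the GC offset. The transcript ENSG00000267072, which lies across ALG1 and SEC14L5, had 53, 13, 14 and 10 counts in the Tpc libraries and 0, 0, 2 and 0 with OL9-119. It is too thinly counted for a fold to be given.

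The genes with the smallest p when all 4 libraries were kept included several in which replicate 3 did not stand apart. EHMT1, a histone H3 lysine 9 methyltransferase, was at 61.1, 86.8, 74.9 and 82.9 CPM under Tpc and at 100.9, 101.6, 101.4 and 101.6 CPM with OL9-119, so that the groups did not overlap. Its log2 fold change was 0.41 ± 0.12 with and 0.41 ± 0.13 without replicate 3 (adjusted p = 1 in both). NFYB, a subunit of the CCAAT-binding factor, was at 80.0, 57.3, 73.6 and 67.7 CPM under Tpc and at 48.5, 52.9, 54.8 and 50.2 CPM with OL9-119 (-0.43 ± 0.14 and -0.46 ± 0.15). Neither passed the threshold, and with all 4 libraries 1.11% of all genes lay wholly above and 0.954% wholly below the Tpc range.

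BCL2L1, which blocks apoptosis, was at 16.4, 32.3, 26.2 and 30.1 CPM under Tpc and at 40.9, 45.3, 31.1 and 37.6 CPM with OL9-119 (0.56 ± 0.18 and 0.65 ± 0.19). The others were MBD3 (0.45 ± 0.15), JDP2 (0.94 ± 0.29), PRDM16 (1.01 ± 0.34), ID1 (0.54 ± 0.19) and PANK4 (0.59 ± 0.20) on the higher side, and FAM111B (-0.50 ± 0.16), ANKRD34B (-0.93 ± 0.31) and SVIP (-0.39 ± 0.13) on the lower side, all with an adjusted p of 1. GC content moved with these values: EHMT1, BCL2L1, MBD3, JDP2, PRDM16, ID1 and PANK4 had a GC content of 51.5% to 62.8%, and FAM111B, NFYB, ANKRD34B and SVIP one of 33.8% to 37.9%. It did not do so for every gene named, since TFRC stood at 41% and CCN2 at 51.5%. With the GC offset and without replicate 3 MBD3 was at 0.30 and SVIP at -0.18, while ID1 (0.45, adjusted p = 0.00708) and FAM111B (-0.41, adjusted p = 0.00367) passed in the fit of 18 PARP1-KO libraries. Tpc replicate 1, in which BCL2L1, ID1, JDP2 and EHMT1 had their lowest values, also had the fewest genes detected at equal depth (17980 against 19548 to 21473 in the other 3), and its part in these values was not tested beyond leaving it out, which gave BCL2L1 0.40 and EHMT1 0.33.

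Repair genes were nearly level. The 30 genes for repair of TOP1 cleavage complexes had a median log2 fold change of -0.01 both with all 4 libraries and without replicate 3, against 0 for all genes. TOP1 itself was at 345 to 449 CPM under Tpc and at 334 to 437 CPM with OL9-119, and TDP1, the target of the compound, at 14.7 to 29.5 and 21.7 to 28.8 CPM. Both ranges overlapped, with log2 fold changes of -0.07 ± 0.10 and 0.08 ± 0.25 with all 4 libraries. Among 32 base excision repair genes 1 was lower at an unadjusted p below 0.05 in either setting, the chromatin protein gene HMGB1 (-0.25 ± 0.11 with all 4 libraries and -0.30 ± 0.12 without replicate 3). Among 34 Fanconi, homologous recombination and checkpoint genes it was FANCD2 without replicate 3 (-0.30 ± 0.15), while with all 4 libraries RBBP8 was lower (-0.28, unadjusted p = 0.0477), TIMELESS higher (0.23, unadjusted p = 0.0491) and FANCD2 at -0.26 ± 0.13 (unadjusted p = 0.0625). Neither list had a member past that p with the GC offset and without replicate 3. Such counts are near the 1.61% to 2.03% of all genes that were lower.

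Of 26 p53 targets 1 was higher, BBC3, which promotes apoptosis, at 0.41 ± 0.17 with all 4 libraries, 0.50 ± 0.19 without replicate 3 and 0.24 with the GC offset as well. Of 23 NF-kappa B targets 1 was higher, NFKBIA, the inhibitor that the pathway induces to limit itself (0.29 ± 0.13 and 0.39 ± 0.13). A single member is near the 2.07% and 2.23% of all genes that were higher, and says nothing about these lists. The 79 cytosolic ribosomal protein genes, the 42 proteasome genes, the 20 genes of the unfolded protein response, the 40 ribosome biogenesis genes and the 22 interferon-stimulated genes had no member past an unadjusted p of 0.05 in either direction without replicate 3, with medians between -0.07 and 0.04. Without replicate 3, 2 of 36 mitosis genes were lower (CENPE and NUSAP1), and 1 of 38 replication genes was higher (CDT1); none of the latter was with the GC offset. For the 333 genes spanning at least 500 kb the median turned from 0.08 with all 4 libraries to -0.04 without replicate 3. Of them 8 were higher and 10 lower with all 4 libraries, and 3 and 9 without replicate 3. Over all genes 2.07% were higher and 2.03% lower with all 4 libraries, and 2.23% and 1.61% without replicate 3.

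**Figure D4:**
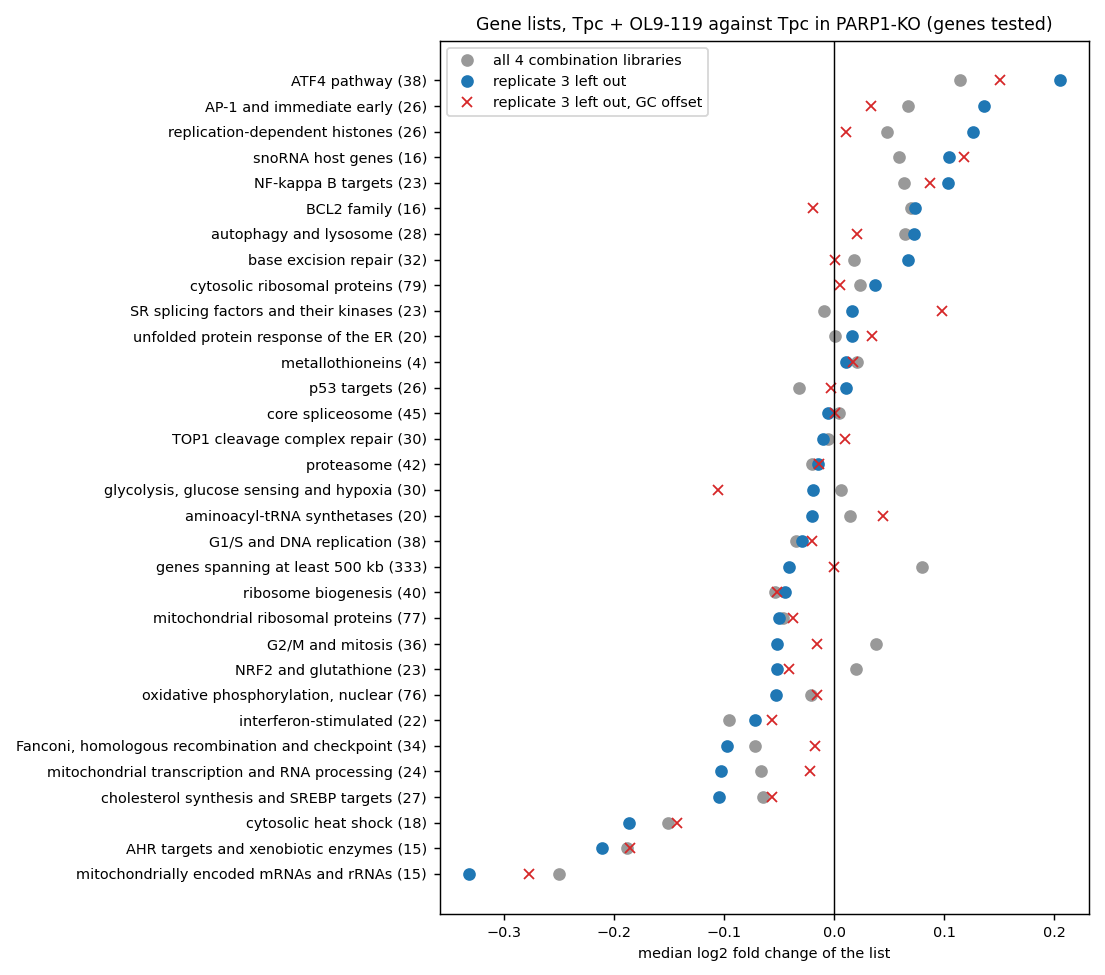
Median log2 fold change of Tpc + OL9-119 against Tpc in PARP1-KO cells (horizontal axis) for 32 gene lists (vertical axis, genes tested in brackets), with all 4 Tpc + OL9-119 libraries, with replicate 3 left out, and with replicate 3 left out and the GC offset. The ATF4 pathway lies at 0.11, 0.21 and 0.15 and the mitochondrially encoded RNAs at -0.25, -0.33 and -0.28.

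The next question was whether OL9-119 did the same without Tpc. No gene passed in the test of the difference between the addition of OL9-119 with Tpc and without it in PARP1-KO cells (0%; edgeR, 968 genes, or 3.35%, with an unadjusted p below 0.05; DESeq2 called 1), with or without the doubted libraries, and none passed in the fit of 18 PARP1-KO libraries. OL9-119 against DMSO gave 1 DEG in the fit of all 40 libraries (0.00346%), MT-ND5, and 22 in the fit of 18 PARP1-KO libraries (0.0761%). MT-ND5 was at 672, 438, 659 and 668 CPM in the OL9-119 libraries, and at 2079, 1659 and 1754 CPM in DMSO replicates 1, 2 and 4 but at 712 CPM in DMSO replicate 3. Of the 19 genes that passed with Tpc in the fit of 18 PARP1-KO libraries, 17 had the same direction without Tpc. Of the 19, 12 were also DEGs of OL9-119 against DMSO in that fit. In the fit of 18 PARP1-KO libraries the log2 fold changes with and without Tpc were -1.72 and -1.59 for MT-ND5, 1.07 and 0.99 for TFRC, 0.74 and 0.89 for MT-RNR1, -0.53 and -0.50 for HSPA8 and -0.80 and -0.73 for CCN2. They were 0.48 and 0.25 for JUN and -0.67 and -0.23 for TIPARP, whose differences had adjusted p of 0.426 and 0.176, so that no departure was shown for either.

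In WT cells the same addition, with 100 nM Tpc, gave 52 DEGs (0.18%), 34 higher (0.118%) and 18 lower (0.0622%). The dose of Tpc and the genotype differed together and cannot be told apart. The 3 highest log2 fold changes there, counting only DEGs averaging 50 or more counts over the 8 WT libraries compared, were those of CHAC1 (1.98 ± 0.37), the cysteine-making enzyme gene CTH (1.54 ± 0.27) and the cystine transporter gene SLC7A11 (1.52 ± 0.21), and in PARP1-KO cells without replicate 3 these were at 1.14, 0.23 and -0.13. The 3 lowest were MT-TQ (-5.20 ± 0.86), MT-TP (-3.99 ± 0.62) and MT-ND6 (-1.74 ± 0.23), against -3.20, -2.31 and -0.77 in PARP1-KO cells without replicate 3. MT-TQ averaged only 16.5 counts over the 8 PARP1-KO libraries compared, and its -3.20 had an SE of 0.85. MT-ND5 was at -1.74 in WT and -1.73 in PARP1-KO cells without replicate 3, and TFRC at 1.36 and 1.06. The median of the ATF4 pathway was 0.65 in WT, where 12 of its 38 genes rose. That of the heat shock list was -0.43, where 4 of 18 fell.

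When the difference between the genotypes was itself tested, 2 genes passed (0.00692%), with all libraries and without replicate 3 alike. HSPA1B, the inducible HSP70, was at 387 ± 43.6 CPM (SD, n = 4) with Tpc and 116.6 ± 13.9 CPM with Tpc + OL9-119 in WT, and at 392 ± 63.6 and 326 ± 34.8 CPM in PARP1-KO cells. The difference of log2 fold changes, PARP1-KO minus WT, was 1.47 ± 0.21 (adjusted p = 8.47e-05) and 1.44 without replicate 3 (adjusted p = 0.000413). In PARP1-KO cells alone HSPA1B did not pass in the fit of 18 libraries (-0.28, adjusted p = 0.276), but it fell there with the GC offset (-0.45, adjusted p = 6.54e-07). Its near-identical neighbour HSPA1A shares reads with it, so that the split between them is uncertain. STC2, a secreted glycoprotein of the ATF4 pathway, was at 82.9 ± 6.65 and 163 ± 18.2 CPM in WT and at 153 ± 6.22 and 145 ± 10.6 CPM in PARP1-KO cells, with a difference of -1.05 ± 0.17 (adjusted p = 0.000485) and -1.01 without replicate 3 (adjusted p = 0.00402). For HSPA8 and SLC7A11 the adjusted p of the difference was 0.0106 with all libraries, and 0.104 and 0.0191 without replicate 3. For MT-ND5, TFRC, CHAC1 and MT-ND6 it was at least 0.553 with all libraries, and no difference between the genotypes was shown for them.

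**Figure D5:**
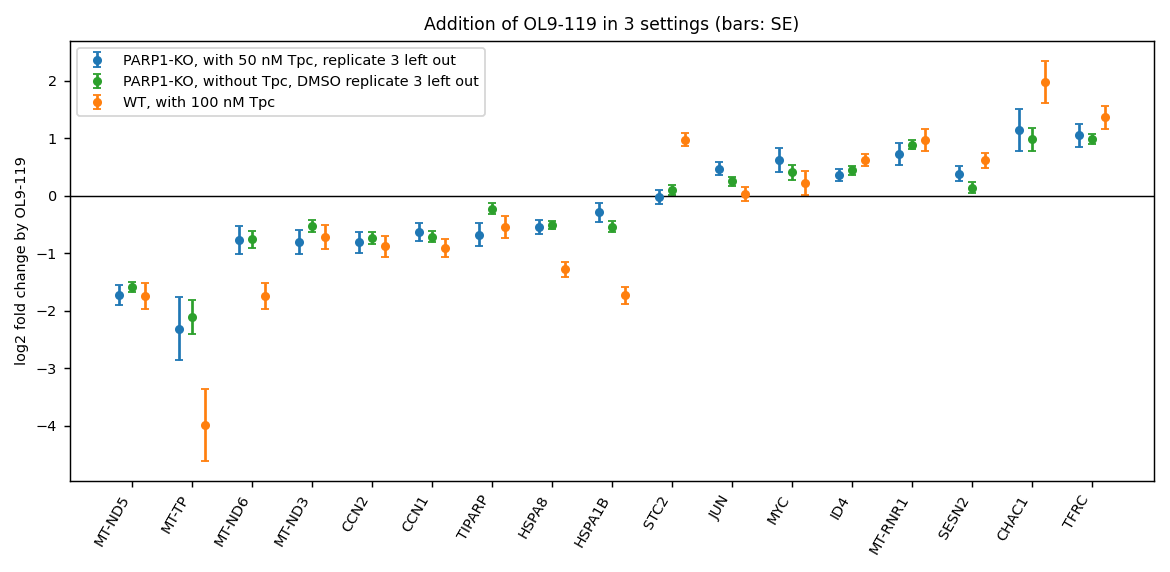
Log2 fold change by OL9-119 (vertical axis, with SE) of 17 genes (horizontal axis) in PARP1-KO cells with 50 nM Tpc without replicate 3, in PARP1-KO cells without Tpc from the fit of 18 PARP1-KO libraries, and in WT cells with 100 nM Tpc. HSPA1B lies at -0.29 and -1.73 and STC2 at -0.03 and 0.98 in PARP1-KO and WT cells with Tpc, while MT-ND5 lies at -1.73 and -1.74.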

How the data were processed

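RNA of HEK293A cells was sequenced as directional poly(A) libraries. Raw read counts per gene were deposited by the authors, made with the GeneCounts mode of STAR 2.7.8 on hg38 (versions from the submitters' processing notes); the strand column kept is not stated. Gene names, positions and overlaps came from GENCODE and promoters from RefSeq (GRCh38.p14).

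Genes with at least 10 counts summed over 40 libraries were kept. TMM factors scaled the libraries, and edgeR 4.0.16 fitted quasi-likelihood models (R 4.3.3, legacy option on), 1 group per condition, and DEGs were called at adjusted p below 0.01. The scripts were tested on simulated data. SE is the log2 fold change divided by the square root of F. Motif shares and GC content were computed from the reference sequences.

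Genes were named by rule: PARP1, TDP1 and TOP1, all DEGs, the 10 rising and 10 falling genes of smallest p with a mean of at least 50 counts, and up to 4 members of each list; others were added after their values were seen, as were the fit of 18 libraries and the GC offset. The members and lists were chosen with earlier results of these data known. The labels call the replicates biological but the methods call them technical, so that p-values may measure technical spread only. DESeq2 1.42.0 was an alternative. Some genes that passed or belong to a list are not reported here.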

Additional observations from a re-analysis of the deposited data

Results flagged for a closer look

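In 110 groups of 4 libraries, each for a gene named in the report, 10 held a library far from the other 3 by Dixon's test. Chance alone does so in about 1 group in 20. That rate does not apply here, since some of the genes were named after their values were seen. In 7 of the 10 it was the library labelled Tpc + OL9-119 replicate 3, a count that is partly set by that choice of genes. MT-ND5 was at 2139 CPM there against 547.9 to 711.2 CPM in the other 3 and MT-TP at 10.48 against 1.338 to 2.642 CPM. ARID1B was at 66.27 against 32.35 to 37.78 CPM and PTK2 at 158.3 against 95.79 to 99.33 CPM. SESN2 was lower there, at 84.35 against 117.9 to 120.2 CPM, as was BBC3, at 51.06 against 67.19 to 68.87 CPM. ENSG00000267072 was at 0.2055 CPM there and at 0 in the other 3.

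In the Tpc group TFRC was at 152.6 CPM in replicate 2 against 189.5 to 191.8 CPM, MT-CO2 at 3260 CPM in replicate 3 against 2742 to 2804 CPM, and ENSG00000267072 at 4.677 CPM in replicate 1 against 0.9282 to 1.38 CPM.

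The addition of OL9-119 differed between the genotypes for 2 genes. The log2 difference, PARP1-KO minus WT, was -1.05 for STC2 and 1.47 for HSPA1B by the interaction term, with the dose of Tpc also differing between the genotypes.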

How the results depend on the processing

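The count of DEGs in the comparison of Tpc + OL9-119 with Tpc in PARP1-KO cells was 0 with all libraries and moved with the libraries and tool used. It was 1 with DESeq2, 11 with only the conditions compared in the fit, 1 with only PARP1-KO libraries and 4 with no filter on low counts. Leaving out 1 library at a time gave 0 to 1, the 1 being without Tpc + OL9-119 replicate 3. Alternatives chosen after seeing the data gave 2 without both libraries labelled replicate 3, 12 with only PARP1-KO libraries and without Tpc + OL9-119 replicate 3, and 19 without both. They gave 22 with only the conditions compared and without that library, 15 by DESeq2 on the same libraries, and, with the GC offset, 2 without it and 28 with the 18 PARP1-KO libraries. The cause of these moves was not tested. The number of the 32 gene lists with a median beyond 0.1 in size was 4, and 4 to 10 with 1 library left out.

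The WT count of 52 became 106 with DESeq2 on all libraries or on those compared, 100 with only the conditions compared, 25 with only WT libraries, 79 with no filter, 82 and 119 at adjusted p below 0.05 and 0.1, and 31 to 53 with 1 library left out. The count of 1 for OL9-119 against DMSO became 0 with DESeq2 in both forms, with filterByExpr and with the legacy option off, 14 with only the conditions compared, 4 with no filter, 0 to 1 with 1 library left out, 2 without both libraries labelled replicate 3, and 22 with the 18 PARP1-KO libraries. The count of 2 for the genotype difference became 13 with DESeq2, 13 with only the conditions compared, 26 with DESeq2 on those, 4 with RLE normalization, 10 with no filter, 5 with the name prefix as a batch, 4 with the legacy option off, 7 and 8 at adjusted p below 0.05 and 0.1, and 2 to 4 with 1 library left out. The count of 0 for the difference with and without Tpc became 1 with DESeq2.

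Replicate numbers were not taken as pairs: same-numbered Tpc and Tpc + OL9-119 libraries correlated at -0.107, 0.394, 0.225 and -0.0579, against a mean of -0.0352 for different numbers, and not every library correlated best with its own number. With the replicate number as a block the counts were 0 for Tpc + OL9-119 against Tpc in PARP1-KO, 59 in WT, 1 for OL9-119 against DMSO, 5 for the genotype difference and 0 for the difference with and without Tpc.

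Genes with small log2 fold changes changed sign. With 1 library left out at a time the values ran from -0.0076 to 0.225 for CTH, -0.1041 to 0.292 for H2BC12, -0.063 to 0.2559 for H2BC5, -0.5009 to 0.471 for H4C8, -0.1922 to 0.0638 for MT-ATP6, -0.1474 to 0.1505 for MT-ND2, -0.0278 to 0.2103 for PDIA4, -0.1466 to 0.0076 for SLC7A11, -0.083 to 0.1956 for TDP1 and -0.1516 to 0.0062 for TOP1. PARP1 came to 4e-04 without both libraries labelled replicate 3. With the GC offset the values were 0.0255, 0.0137 and 0.0142 for SLC7A11, 2e-04 for MRPS30, -0.0018 for H2BC12, -0.0296, -0.0548 and -0.0543 for IER3, -0.0189 and -0.0159 for BAK1, -0.0118 in both fits for GAPDH and 0.0035 for MT-ATP6. Genes of a few reads, such as ENSG00000267072, could not be measured closely at this depth.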
